A study of Homo sapiens with 6 samples.

Results

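The 10 genes described here encode the HRD1 complex of the endoplasmic reticulum (ER) membrane and the proteins that work with it: HERPUD1, HERPUD2, the derlins DERL1, DERL2 and DERL3, SEL1L, SYVN1, UBE2J1, OS9 and ERLEC1. They were taken by symbol from a table of estimated read counts that held 37993 gene symbols, of which 13394 reached 1 CPM (a count scaled to the library's depth) in at least 1 library. All 10 were found, and all had between 372 and 5452 counts in every library. The libraries were made from RNA of HEK293T cells, an embryonic kidney line, and there were 6 of them with 1 library per group. Cells overexpressed ATF6 labelled WT, its missense variant M67V, its nonsense variant N267star, or 1 of the deletion variants ex2-3del and ex8-14del. Each deletion lacks the exons that its label gives, and the control was labelled non-transfected (NT). The study, on alleles tied to achromatopsia (an absence of cone vision), set each of them against the control. All groups share the host line, which has its own ATF6 gene, and the labels name neither the promoter of the constructs nor the share of cells that took them up. The growth protocol mentions an empty vector and the sample labels do not, so whether the control cells saw the transfection reagent is not settled by the labels. The authors' comparison sheet whose fold changes match the library labelled WT, with an SD of the log2 difference of 2.1e-04 over 10911 genes, is headed with a number in place of that label. The sources used here do not say whether that construct was full-length ATF6.

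The HRD1 complex is the best studied machine of ER-associated degradation, in which misfolded proteins are recognised in the ER lumen, drawn back through the membrane, ubiquitinated on the cytosolic side and passed to the proteasome. SYVN1 (HRD1) is the ubiquitin ligase, SEL1L the adaptor that holds it to the luminal lectins OS9 and ERLEC1, UBE2J1 an ER-anchored ubiquitin-conjugating enzyme, the derlins membrane proteins of the rhomboid fold that take part in retrotranslocation, and HERPUD1 a short-lived membrane protein with a ubiquitin-like domain that binds the ligase. ATF6 is an ER membrane protein whose cytosolic part is released by cleavage in the Golgi during ER stress and then acts as a transcription factor on chaperone and degradation genes. It is known to act with NF-Y at ER stress response elements, in which a CCAAT box and a CCACG motif stand at a fixed distance.

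The bases before the transcription start are shown for 4 of the genes, because they are the paralog pair HERPUD1 and HERPUD2, and the adaptor and ligase pair SEL1L and SYVN1, and the members of each pair differed in their counts as described further on. The sequences and positions are RefSeq's on GRCh38.p14, which is not the authors' build, in the direction of transcription, and cover 250 bases before the start at chr16:56931892-56932141 (plus strand) for HERPUD1, chr7:35695136-35695385 (minus strand) for HERPUD2, chr14:81533854-81534103 (minus strand) for SEL1L and chr11:65134520-65134769 (minus strand) for SYVN1. Capitals mark matches, on either strand, to the ER stress response element (CCAAT, 9 bases of any kind, then CCACG) or the ER stress response element II (ATTGG, 1 base of any kind, then CCACG), each with at most 1 mismatch in the 10 fixed letters, and to CCACG alone.
HERPUD1: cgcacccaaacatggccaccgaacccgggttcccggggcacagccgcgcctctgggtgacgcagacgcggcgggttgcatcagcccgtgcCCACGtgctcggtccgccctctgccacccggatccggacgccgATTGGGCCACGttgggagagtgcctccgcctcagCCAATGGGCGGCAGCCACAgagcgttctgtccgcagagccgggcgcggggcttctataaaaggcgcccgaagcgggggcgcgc
HERPUD2: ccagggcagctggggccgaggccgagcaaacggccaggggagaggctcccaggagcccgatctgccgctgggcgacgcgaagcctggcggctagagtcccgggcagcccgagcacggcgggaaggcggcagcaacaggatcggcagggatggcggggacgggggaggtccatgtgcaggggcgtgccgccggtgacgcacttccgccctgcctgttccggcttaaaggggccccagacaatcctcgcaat
SEL1L: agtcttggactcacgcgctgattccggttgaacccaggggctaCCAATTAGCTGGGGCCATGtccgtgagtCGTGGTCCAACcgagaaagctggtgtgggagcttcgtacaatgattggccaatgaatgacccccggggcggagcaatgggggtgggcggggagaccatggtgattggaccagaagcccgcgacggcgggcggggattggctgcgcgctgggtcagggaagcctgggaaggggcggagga
SYVN1: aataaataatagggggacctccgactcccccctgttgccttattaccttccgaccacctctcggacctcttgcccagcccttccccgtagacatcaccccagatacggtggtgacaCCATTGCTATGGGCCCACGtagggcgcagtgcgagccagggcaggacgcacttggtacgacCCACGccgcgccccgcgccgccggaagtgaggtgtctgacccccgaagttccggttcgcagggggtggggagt

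The promoter table held 8 of the 10 genes, and DERL1 and DERL3 were not among them. The search window ran from 250 bases before to 50 bases after the start and covered both strands. HERPUD1 had the exact element II, ATTGGGCCACG, beginning 117 bases before the start, a match that 0.0544% of the 34943 distinct promoters in the table hold. The exact first element was in 0 of the 8 and in 0.0773% of all promoters. With 1 mismatch allowed, a search added after the data had been seen, HERPUD1, SEL1L and SYVN1 each held both elements, against 1.55% of all promoters for the first element and 1.23% for element II. The HERPUD1 match to the first element, CCAATGGGCGGCAGCCACA, began 83 bases before the start. In SEL1L the matches were CCAATTAGCTGGGGCCATG at 207 bases and GTTGGACCACG, on the other strand, at 179 bases before the start. In SYVN1 the matches CCATTGCTATGGGCCCACG at 134 bases and ATGGGCCCACG at 126 bases overlap. The TGACGTG core of the unfolded protein response element was in UBE2J1 alone, against 1.97% of all promoters. CCACG by itself was in 6 of the 8, as it is in 38.1% of all promoters, and HERPUD2 and DERL2 held none of the letters searched. These matches describe the letters in a window and say nothing of binding or of any difference in counts.

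The libraries held between 16023926 and 16813314 counts. All 7 HEK293T markers reached 1 CPM in every library, and none of 6 markers of blood, endothelium, liver, monocytes and muscle did, with a summed level between 0.651 and 0.952 CPM. ATF6 itself was 13.5-fold higher in the WT library, 17.5-fold in M67V and 8.37-fold in N267star, and among the deletions 15.8-fold in ex2-3del and 28.3-fold in ex8-14del, each relative to NT, and the counts do not separate the construct from the cells' own gene. HSPA5, the ER chaperone BiP, had 3634 CPM in WT and 3375 CPM in M67V. The N267star library had 693, ex2-3del 599.7 and ex8-14del 741 CPM, and NT had 559 CPM. With 1 library per group there is no replicate check, and no p-value could be given for a condition. Brackets hold exact 95% intervals for the quotient of a pair of counts, which reflect counting error only. A gene met the criterion when it was at least 1.5-fold apart between 2 libraries, with its interval on the same side of 0 and at least 1 CPM in either library.

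In the WT and M67V libraries HERPUD1, DERL3 and SEL1L stood well above the control. DERL2 was 1.78-fold and 1.74-fold above it, a difference left uncertain by an overlapping gene described further on. In the N267star, ex2-3del and ex8-14del libraries the 10 genes stayed within 1.31-fold of the control. Of the 10 genes, 4 met the criterion as higher and 0 as lower in WT relative to NT, where 1.87% of all genes tested were higher and 0.849% lower. In M67V relative to NT it was 5 higher and 0 lower, with OS9 as the fifth, against 2.07% and 0.635% of all genes. At a 2-fold threshold HERPUD1, DERL3 and SEL1L remained in both, 3 of 10 genes against 0.986% of all genes in WT and 0.984% in M67V. The median log2 ratio of the 10 genes was 0.49 in WT and 0.54 in M67V, beside medians of all genes of −0.008 and −0.002. The 3 other alleles gave 0 higher and 0 lower in each comparison with NT. The background shares there were 0.419% higher and 0.799% lower for N267star, 0.616% and 0.608% for ex2-3del, and 0.669% and 0.776% for ex8-14del. In bulk libraries like these, more transfected cells and more RNA per transfected cell cannot be told apart.

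**Figure D1:**
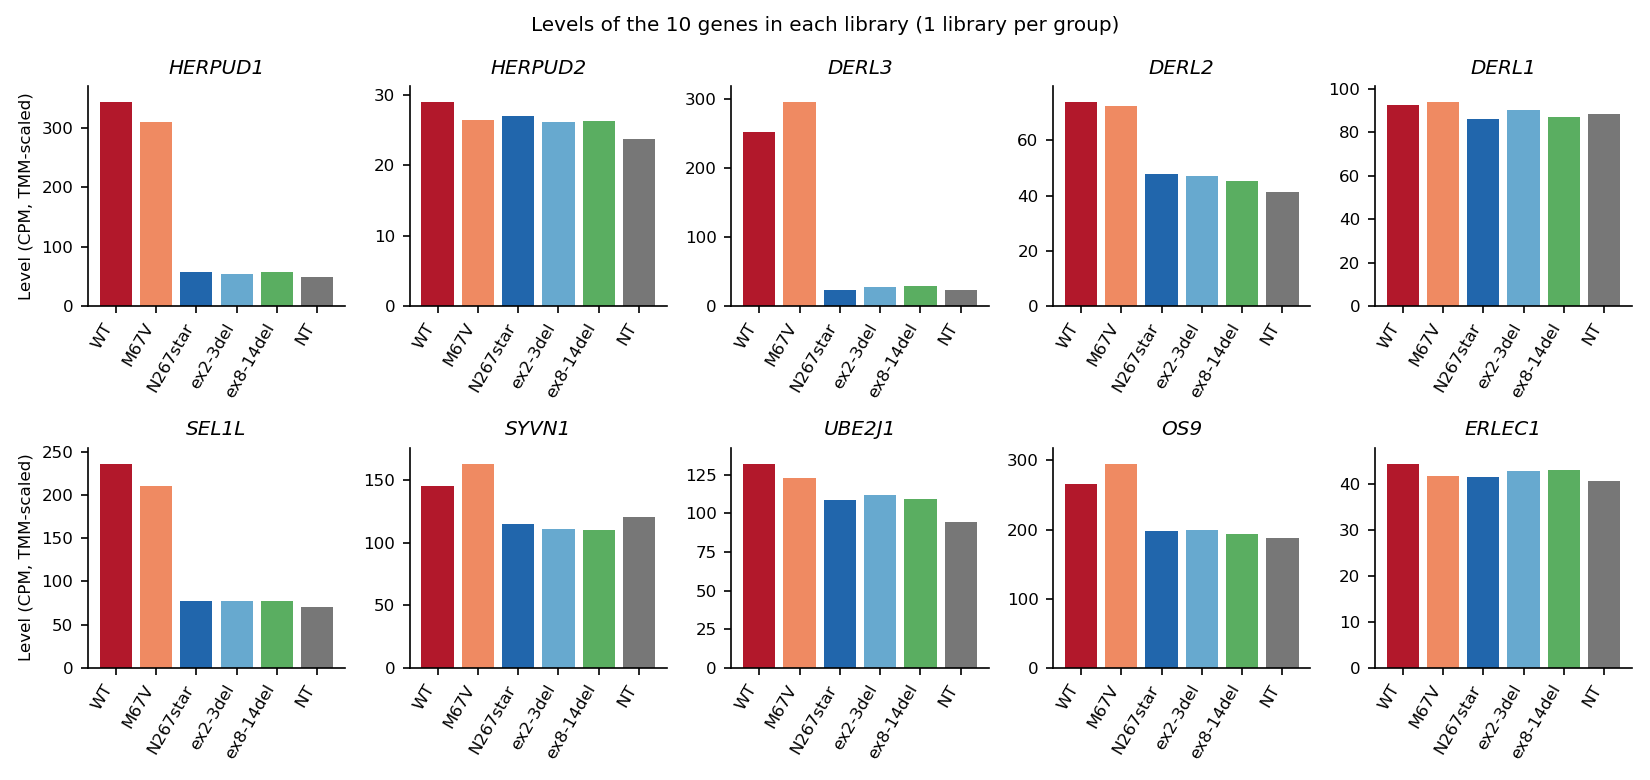
Level of each of the 10 genes in CPM (scaled with TMM, vertical axes starting at 0 and differing between panels) in the WT, M67V, N267star, ex2-3del, ex8-14del and NT libraries, with 1 bar per library and no error bars because each group is 1 library. HERPUD1, DERL3 and SEL1L stand apart in WT and M67V, DERL2 and OS9 less so, and DERL1 and ERLEC1 are nearly level across all 6.

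HERPUD1 was the second most shifted of the 10 genes. Its level was 343 CPM in WT and 309.8 CPM in M67V, while N267star had 58.2, ex2-3del 54.4 and ex8-14del 58.1 CPM, against 48.5 CPM in NT. The WT and M67V libraries were high, and the 4 others were close together, with NT the lowest. The log2 ratio to NT was 2.82 (2.71 to 2.93) in WT, a 7.06-fold difference at rank 19 from the highest of 13187 genes, and 2.67 (2.57 to 2.78) in M67V, or 6.37-fold. N267star stood at 0.26 (0.13 to 0.40), ex2-3del at 0.16 (0.03 to 0.30) and ex8-14del at 0.26 (0.12 to 0.40). All 3 intervals lay above 0, and none of the ratios met the criterion.

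HERPUD2, the paralog, belongs to the same family and is less studied. It had 28.95 CPM in WT and 26.4 CPM in M67V. The N267star library had 27.0, ex2-3del 26.2 and ex8-14del 26.3 CPM, and NT had 23.7 CPM. The NT library was the lowest of the 6 and WT the highest, but the span is small. In WT the log2 ratio was 0.28 (0.09 to 0.48), while the interval included 0 for M67V at 0.15, N267star at 0.19, ex2-3del at 0.14 and ex8-14del at 0.15. Within a library, HERPUD1 had 11.9 (10.8 to 13.1) reads per HERPUD2 read in WT and 11.7 (10.6 to 12.98) in M67V. N267star had 2.15, ex2-3del 2.08 and ex8-14del 2.21, against 2.04 (1.81 to 2.31) in NT. Such read ratios depend on the lengths of both transcripts and are compared only between libraries.

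The 3 derlins differed unequally between the libraries. DERL3, which in mammals is the derlin with the most tissue-restricted expression, was at 252 CPM in WT and 295 CPM in M67V, while N267star had 22.8, ex2-3del 27.1 and ex8-14del 29.9 CPM, against 22.7 CPM in NT. WT and M67V were far above the rest, M67V being the higher of the pair, and N267star was level with NT. The log2 ratio to NT was 3.47 (3.32 to 3.63) in WT, an 11.04-fold difference at rank 13 from the highest, and 3.69 (3.55 to 3.86), or 12.9-fold, in M67V. N267star gave 0.01 (−0.20 to 0.22), ex2-3del 0.25 (0.05 to 0.45) and ex8-14del 0.39 (0.20 to 0.59). The ex8-14del value, 1.31-fold, was the largest difference of any of the 10 genes from NT in N267star, ex2-3del and ex8-14del, and it was below the criterion.

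DERL3 overlaps SMARCB1, a chromatin remodelling subunit on the opposite strand, in the GENCODE annotation, and no strand setting of the counting is given. SMARCB1 had a log2 ratio to NT of −0.10 (−0.17 to −0.04) in WT and 0.06 (−0.005 to 0.12) in M67V. At equal depth DERL3 had 3757 more reads in WT than in NT, where SMARCB1 had 266 fewer. In M67V it had 4460 more reads than in NT, beside 163 more for SMARCB1. DERL3 reads per SMARCB1 read were 1.13 in WT and 1.18 in M67V. The N267star library had 0.0962, ex2-3del 0.114 and ex8-14del 0.121, and NT had 0.0946.

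DERL2 was at 73.8 CPM in WT and 72.3 CPM in M67V, while N267star had 47.8, ex2-3del 47.3 and ex8-14del 45.3 CPM, against 41.4 CPM in NT. Both WT and M67V lay above the other libraries, with log2 ratios to NT of 0.83 (0.70 to 0.97), or 1.78-fold, and 0.80 (0.67 to 0.94), or 1.74-fold. N267star gave 0.21 (0.06 to 0.36), ex2-3del 0.19 (0.04 to 0.34) and ex8-14del 0.13 (−0.02 to 0.28). The neighbour MIS12, a kinetochore gene on the opposite strand that overlaps DERL2 in the annotation, had larger ratios in the same direction. It had 178 CPM in WT and 167 CPM in M67V, while N267star had 81.9, ex2-3del 79.9 and ex8-14del 91.4 CPM, against 76.2 CPM in NT. The WT and M67V libraries gave log2 ratios of 1.22 (1.13 to 1.32) and 1.13 (1.03 to 1.23). The reads gained at equal depth in WT relative to NT were 531 for DERL2 and 1667 for MIS12. In M67V relative to NT they were 506 and 1485. How many of these reads come from which gene was not tested, so the DERL2 difference is uncertain.

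DERL1 showed no such shift. Its level was 92.7 CPM in WT and 93.7 CPM in M67V. The N267star library had 86.1, ex2-3del 90.3 and ex8-14del 87.0 CPM, and NT had 88.6 CPM. All 5 intervals of its log2 ratio to NT included 0, the widest reach being 0.19 in M67V and −0.15 in N267star, so differences beyond that size lie outside the counting error of these libraries. Set per kilobase of transcript, DERL3 made up 64.1% of the summed derlin level in WT and 67.7% in M67V, while N267star had 16.5%, ex2-3del 18.5% and ex8-14del 20.7%, against 16.7% in NT. DERL1 held 21.99% in WT and 20.1% in M67V, against 60.8% in NT. These shares rest on the longest annotated transcript. With the median transcript length the DERL3 share was 53.8% in WT and 57.8% in M67V, against 12.3% in NT. For DERL3 the split by library is thus wider than the effect of the length chosen. DERL2 held 13.9% in WT and 22.5% in NT on the longest transcript, and 24.3% and 34.6% on the median one. For DERL2 the length chosen thus moved the share more than the library did. The uncertain DERL2 counts enter all these shares.

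**Figure D2:**
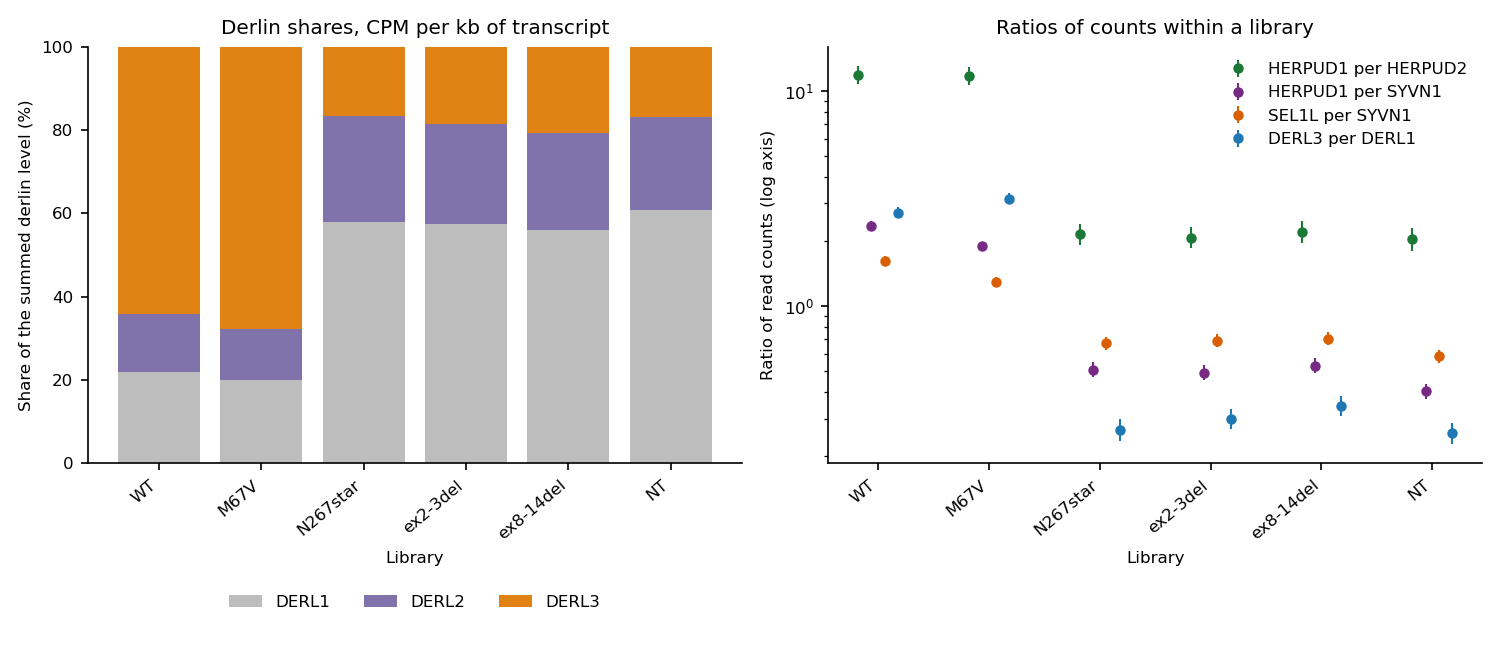
Left, share (%) of DERL1, DERL2 and DERL3 in their summed level per kilobase of transcript, with libraries WT, M67V, N267star, ex2-3del, ex8-14del and NT from left to right. Right, ratios of read counts within each library on a log axis, where points are ratios and bars exact 95% intervals of counting error. DERL3 fills most of the derlin bar in WT and M67V, and the 4 read ratios are high in the same libraries.

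SEL1L, the adaptor of the ligase, differed more than the ligase itself. It was at 236 CPM in WT and 211 CPM in M67V, while N267star had 77.3, ex2-3del 76.8 and ex8-14del 77.6 CPM, against 70.6 CPM in NT. WT and M67V were high, and the other 3 alleles lay within 1 CPM of each other, slightly above NT. The log2 ratio to NT was 1.74 (1.65 to 1.84) in WT, a 3.34-fold difference at rank 49 from the highest, and 1.58 (1.48 to 1.68), or 2.98-fold, in M67V. For N267star it was 0.13 (0.02 to 0.25), for ex2-3del 0.12 (0.007 to 0.24) and for ex8-14del 0.14 (0.02 to 0.25).

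SYVN1 reached 146 CPM in WT and 163 CPM in M67V. The N267star library had 115, ex2-3del 111 and ex8-14del 110.0 CPM, and NT had 121 CPM. WT and M67V were above NT and the other alleles below it, which no other of the 10 genes showed. The log2 ratio to NT was 0.27 (0.18 to 0.35) in WT and 0.43 (0.35 to 0.52) in M67V, neither of which met the criterion. N267star gave −0.07 (−0.16 to 0.02), ex2-3del −0.12 (−0.21 to −0.03) and ex8-14del −0.14 (−0.23 to −0.04). SYVN1 overlaps FAU, a ribosomal protein gene on the same strand, whose log2 ratio to NT was 0.06 in WT and 0.04 in M67V but 0.17 (0.09 to 0.24) in ex2-3del and 0.24 (0.17 to 0.32) in ex8-14del. The part of shared reads in the SYVN1 values was not tested.

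The adaptor and the ligase differed unequally, so their read ratio was not the same in all libraries. SEL1L had 1.62 (1.54 to 1.71) reads per SYVN1 read in WT and 1.29 (1.23 to 1.36) in M67V, while N267star had 0.672, ex2-3del 0.691 and ex8-14del 0.706, against 0.584 (0.542 to 0.628) in NT. HERPUD1 had 2.36 reads per SYVN1 read in WT and 1.90 in M67V, while N267star had 0.506, ex2-3del 0.489 and ex8-14del 0.528, against 0.401 in NT. The order of the libraries was the same for both ratios at the top, with WT above M67V and M67V above all others.

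UBE2J1, the conjugating enzyme that hands ubiquitin to the ligase, was at 132 CPM in WT and 123 CPM in M67V, while N267star had 109, ex2-3del 112 and ex8-14del 109 CPM, against 94.5 CPM in NT. All 5 ATF6 libraries were above NT. The log2 ratio was 0.48 (0.39 to 0.58) in WT, or 1.398-fold, and 0.38 (0.29 to 0.48) in M67V. N267star gave 0.20 (0.10 to 0.30), ex2-3del 0.24 (0.14 to 0.34) and ex8-14del 0.21 (0.11 to 0.30). None met the criterion, and the 5 comparisons share the NT library, so a low UBE2J1 count there enters all of them.

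Of the lectins that read trimmed N-glycans on misfolded proteins, OS9 differed and ERLEC1 did not detectably. OS9 was at 266 CPM in WT and 295 CPM in M67V. The N267star library had 198, ex2-3del 199.99 and ex8-14del 194 CPM, and NT had 188 CPM. The M67V library was the highest and WT the next. In M67V the log2 ratio to NT was 0.65 (0.59 to 0.72), and its 1.57-fold difference met the criterion. In WT it was 0.50 (0.43 to 0.57), and its 1.42-fold difference did not, so the gap between 4 and 5 genes turns on a small step across the threshold. N267star gave 0.07 (0.003 to 0.15), ex2-3del 0.09 (0.02 to 0.16) and ex8-14del 0.05 (−0.02 to 0.12).

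ERLEC1 was at 44.4 CPM in WT and 41.8 CPM in M67V, while N267star had 41.6, ex2-3del 42.7 and ex8-14del 43.1 CPM, against 40.7 CPM in NT. Its log2 ratios to NT ran between 0.03 and 0.13, and every interval included 0. OS9 had 5.98 (5.52 to 6.49) reads per ERLEC1 read in WT and 7.06 (6.50 to 7.67) in M67V, while N267star had 4.75, ex2-3del 4.68 and ex8-14del 4.50, against 4.62 (4.24 to 5.03) in NT.

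**Figure D3:**
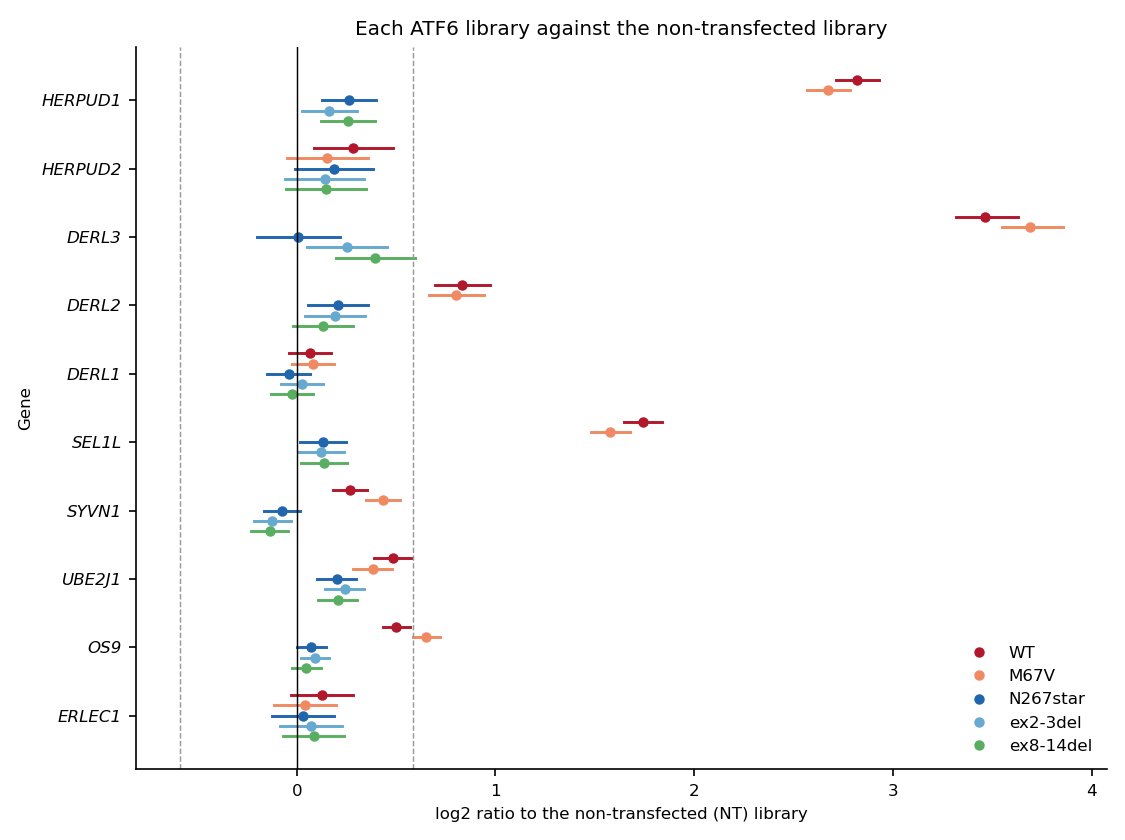
Log2 ratio of each of the 10 genes in each of the 5 ATF6 libraries relative to NT, on the horizontal axis, with genes down the page. Points are ratios, bars exact 95% intervals of counting error, and dashed lines mark 1.5-fold. HERPUD1, DERL3, SEL1L and DERL2 lie past the dashed line in WT and M67V, and OS9 in M67V alone, while all points of the other 3 alleles lie between the lines.

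N267star, ex2-3del and ex8-14del share the NT library, and their small differences from it are given side by side. The interval lay above 0 for 5 genes and below 0 for 0 with N267star, for 6 and 1 with ex2-3del, and for 4 and 1 with ex8-14del. Over all genes the interval lay above 0 for 13.7% and below 0 for 13.8% in N267star, and for 9.19% and 10.4% in ex2-3del. For ex8-14del the shares were 11.1% and 10.7%. The gene below 0 was SYVN1 both times, and OS9, among the 5 for N267star, had an interval that included 0 with library totals. HERPUD1, SEL1L and UBE2J1 were the genes with the interval above 0 in all 3 comparisons. The median log2 ratio of the 10 genes was 0.10 with N267star and 0.13 with both ex2-3del and ex8-14del, beside medians of all genes of 0.0002, −0.003 and 0.001.

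Set against WT, M67V carried a mixed pattern of small differences. None of the 10 genes met the criterion, as higher or as lower, where 0.628% of all genes were higher and 0.499% lower. DERL3 was higher by 0.23 (0.17 to 0.29) on the log2 scale, SYVN1 by 0.17 (0.08 to 0.25) and OS9 by 0.15 (0.09 to 0.21). HERPUD1 was lower, at −0.15 (−0.20 to −0.09), as were SEL1L at −0.17 (−0.23 to −0.10) and UBE2J1 at −0.10 (−0.19 to −0.01). HERPUD2, DERL1, DERL2 and ERLEC1 had intervals that included 0. Over all genes the interval lay above 0 for 12.2% and below 0 for 9.79%. ATF6 counts were 1.30-fold higher in M67V than in WT, and the part of that difference in these ratios was not tested.

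In N267star, ex2-3del and ex8-14del relative to WT, the same 4 genes met the criterion as lower and 0 as higher: HERPUD1, DERL3, SEL1L and DERL2. The share of all genes lower and higher was 1.96% and 0.539% for N267star, 1.78% and 0.706% for ex2-3del, and 1.73% and 0.682% for ex8-14del. On the log2 scale relative to WT, N267star had DERL3 at −3.46 (−3.62 to −3.31), ex2-3del at −3.21 (−3.36 to −3.08) and ex8-14del at −3.07 (−3.21 to −2.94). For HERPUD1, N267star was at −2.56 (−2.66 to −2.46), ex2-3del at −2.66 (−2.76 to −2.56) and ex8-14del at −2.56 (−2.66 to −2.46). SEL1L stood at −1.61 (−1.70 to −1.52) with N267star, −1.62 (−1.71 to −1.53) with ex2-3del and −1.60 (−1.70 to −1.51) with ex8-14del. The 3 libraries were thus nearly level for HERPUD1 and SEL1L, and DERL3 was lowest in N267star. For DERL2, N267star was at −0.62, ex2-3del at −0.64 and ex8-14del at −0.70. OS9 ran between −0.45 and −0.41, SYVN1 between −0.40 and −0.34 and UBE2J1 between −0.28 and −0.24, without meeting the criterion. All 10 genes were below WT in each of the 3 alleles, some of them by little, and the 3 comparisons share the WT library. The median log2 ratio of all genes relative to WT was 0.0096 with N267star, −0.00015 with ex2-3del and −0.0004 with ex8-14del. The intervals excluded 0 for 8 genes in N267star and for 7 in each of the others, with DERL1 as the added one in N267star at −0.11 (−0.21 to −0.002), an interval that included 0 with library totals. Over all genes the interval lay below 0 for 10.5% with N267star, 13.4% with ex2-3del and 15.1% with ex8-14del. ATF6 counts relative to WT were 0.621-fold with N267star, 1.17-fold with ex2-3del and 2.1-fold with ex8-14del. These counts mix the construct with the cells' own gene, and the part of that difference in these ratios was not tested.

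**Figure D4:**
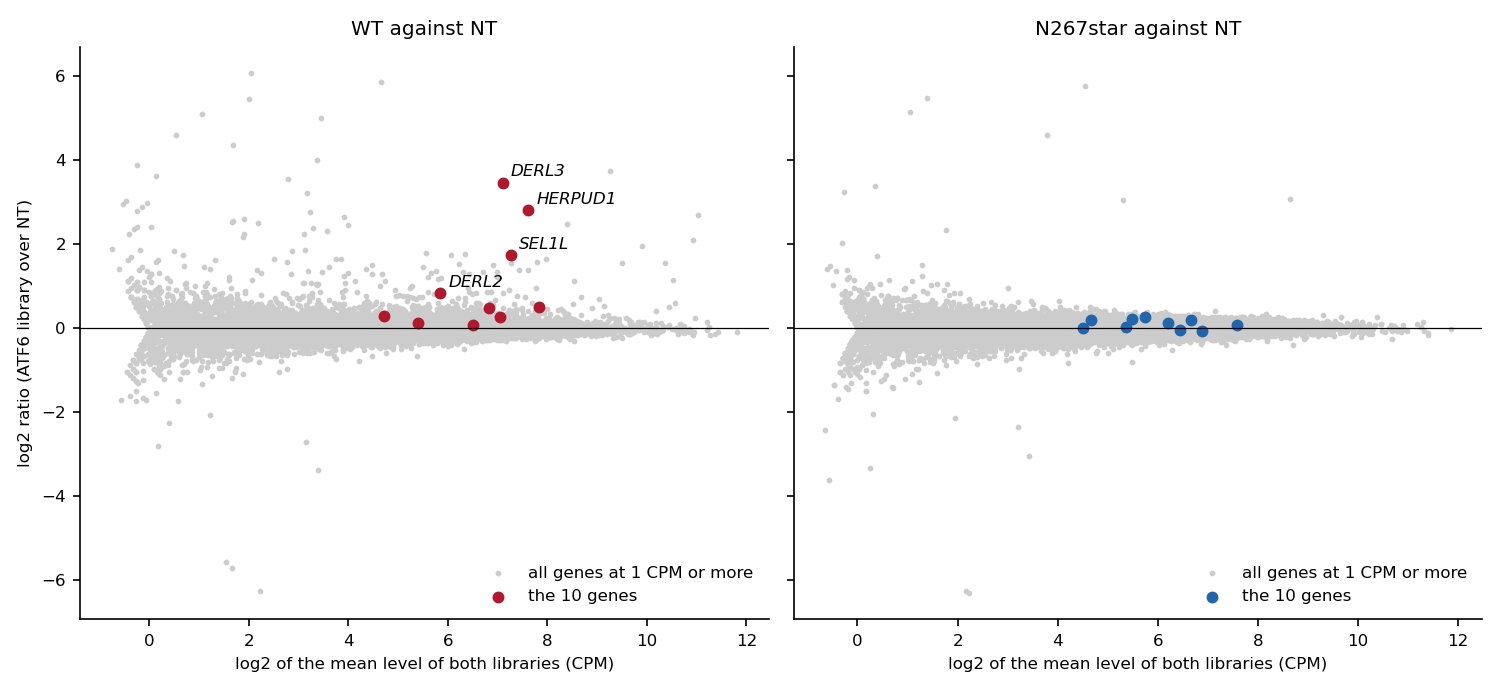
Log2 ratio (vertical axis) against the log2 of the mean level of both libraries in CPM (horizontal axis) for all genes with at least 1 CPM, as grey points, and the 10 genes, as coloured points, for WT relative to NT on the left and N267star relative to NT on the right. In the left panel DERL3, HERPUD1, SEL1L and DERL2 lie above the band of genes at their level, and in the right panel all 10 lie in the band.

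Levels of different genes are comparable only per transcript length, and their order depends on the transcript chosen. On CPM per kilobase of the longest annotated transcript, OS9 was the highest of the 10 in NT at 69.7, followed by SYVN1 at 38.5 and DERL1 at 26.5, and DERL3 was the lowest at 7.29. In WT the highest were HERPUD1 at 116, OS9 at 98.7 and DERL3 at 81.0. With the median transcript length DERL1 led in NT at 96.5 and DERL3 led in WT at 248. HERPUD2 was the lowest or next to lowest in every library on the longest transcript and the lowest on the median one. On either length DERL3 stood in the lower part of the order in NT and among the top 3 in WT.

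Patterns across the 6 libraries were compared by the distance between centred log2 CPM values, where 0 means the same pattern, over the 11403 genes that reached 5 CPM in some library. These distances are descriptions over 6 libraries that share 1 control. They are not scaled, so they grow with the size of a gene's differences, and genes with flat levels lie close together. For HERPUD1 the nearest gene outside the 10 was HSPA5 at 0.218, then CORO1A at 0.459 and ZNF804A at 0.5001. For SEL1L the nearest were TMEM50B at 0.172, ZNF165 at 0.249 and SULF1 at 0.264. For DERL3, which spanned 3.69 in log2 CPM, they were TLL2 at 0.816, GRM8 at 0.862 and ZNF804A at 1.01. TMEM50B was at 111 CPM in WT and 107 CPM in M67V, against 38.5 CPM in NT. Among the 10, DERL1 and ERLEC1 were the closest pair at 0.121, SYVN1 and OS9 were 0.195 apart, and UBE2J1 was nearest to HERPUD2 at 0.212. HERPUD1 and DERL3 were 1.05 apart, with spans in log2 CPM of 2.82 and 3.69. SEL1L, with a span of 1.74, was 1.02 from DERL2, with 0.83. DERL1 and ERLEC1 spanned only 0.12 and 0.13, so these distances reflect the size of the differences as well as their shape.

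Other genes of ER-associated degradation were read from lists that were chosen with earlier results of these data known. Of all genes tested, 1.87% were higher and 0.849% lower in WT relative to NT, and 2.07% and 0.635% in M67V. At such shares a count of 0 or 1 in a list this short does not set it apart from other genes. Of 19 accessory factors of the HRD1 complex, 1 met the criterion as higher and 0 as lower in WT relative to NT, with a median log2 ratio of 0.06. That gene was SELK, a selenoprotein that binds derlins, at 46.0 CPM in WT against 27.0 CPM in NT, with a log2 ratio of 0.77 (0.60 to 0.94). In M67V it was at 40.3 CPM, a ratio of 0.58 (0.40 to 0.76), and 0 of the 19 met the criterion. VIMP, another selenoprotein bound to derlins and VCP, had log2 ratios to NT of 0.32 in WT and 0.49 in M67V, while UBXN4 was at 0.16 and the deubiquitinase USP19 at −0.13 in WT. N267star, ex2-3del and ex8-14del gave 0 of 19 in either direction, where 0.419% to 0.799% of all genes met the criterion in a given direction.

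Of 14 genes of the extraction machinery, which pulls ubiquitinated proteins from the membrane, 0 met the criterion in WT and 1 in M67V relative to NT. It was VCP, the ATPase at the centre of that machinery, at 556 CPM in WT and 605 CPM in M67V, against 397 CPM in NT. Its log2 ratio was 0.49 (0.44 to 0.53) in WT and 0.61 (0.56 to 0.65) in M67V, while N267star stood at 0.006, ex2-3del at 0.04 and ex8-14del at 0.06. In WT, NSFL1C, a cofactor of VCP, was at −0.16 and SVIP, a small protein that binds VCP, at 0.14. The list's median was 0.04 in WT and −0.01 in M67V. Of all genes, 1.87% were higher in WT and 2.07% in M67V relative to NT.

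Other ubiquitin ligases of the ER membrane gave 0 of 12 genes tested, in either direction, in all 5 alleles relative to NT. Their median log2 ratio was −0.06 in WT and −0.004 in M67V. The shares of all genes higher relative to NT were 1.87% in WT and 2.07% in M67V, here and for the next list. TMEM129 was at −0.28 and RNF5 at 0.20 in WT, with RNF5 at 0.39 (0.26 to 0.52) in M67V. CGRRF1 was at 0.15 and TRIM13 at −0.14 in WT. Of 10 ERAD mannosidases, glucosyltransferases and redox partners, 1 was higher in WT and 2 in M67V relative to NT, with 0 lower and medians of 0.27 and 0.32. DNAJB9, a cochaperone of HSPA5, was at 24.0 CPM in WT and 21.8 CPM in M67V, against 10.99 CPM in NT, with log2 ratios of 1.12 (0.87 to 1.39) and 0.98 (0.73 to 1.26). ERP44, a thiol oxidoreductase of the early secretory pathway, was at 0.55 (0.46 to 0.64) in WT and 0.60 (0.51 to 0.70) in M67V, and the M67V value met the criterion. EDEM1, a mannosidase-like protein that marks substrates, was at 0.47 in WT, and UGGT1 at 0.40. The 6 chaperone genes used as a check of ATF6 activity were HSPA5, HSP90B1, PDIA4, CRELD2, DNAJB11 and HYOU1. All 6 met the criterion as higher for WT and for M67V, beside the same 1.87% and 2.07% of all genes. Their median log2 ratios were 1.76 and 1.85. For each of the other alleles 0 met it, where 0.419% to 0.669% of all genes were higher. Yet 5 of the 6 had an interval above 0 with each of those alleles, beside 9.19% to 13.7% of all genes. The medians there were 0.19 with N267star, 0.10 with ex2-3del and 0.24 with ex8-14del.

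**Figure D5:**
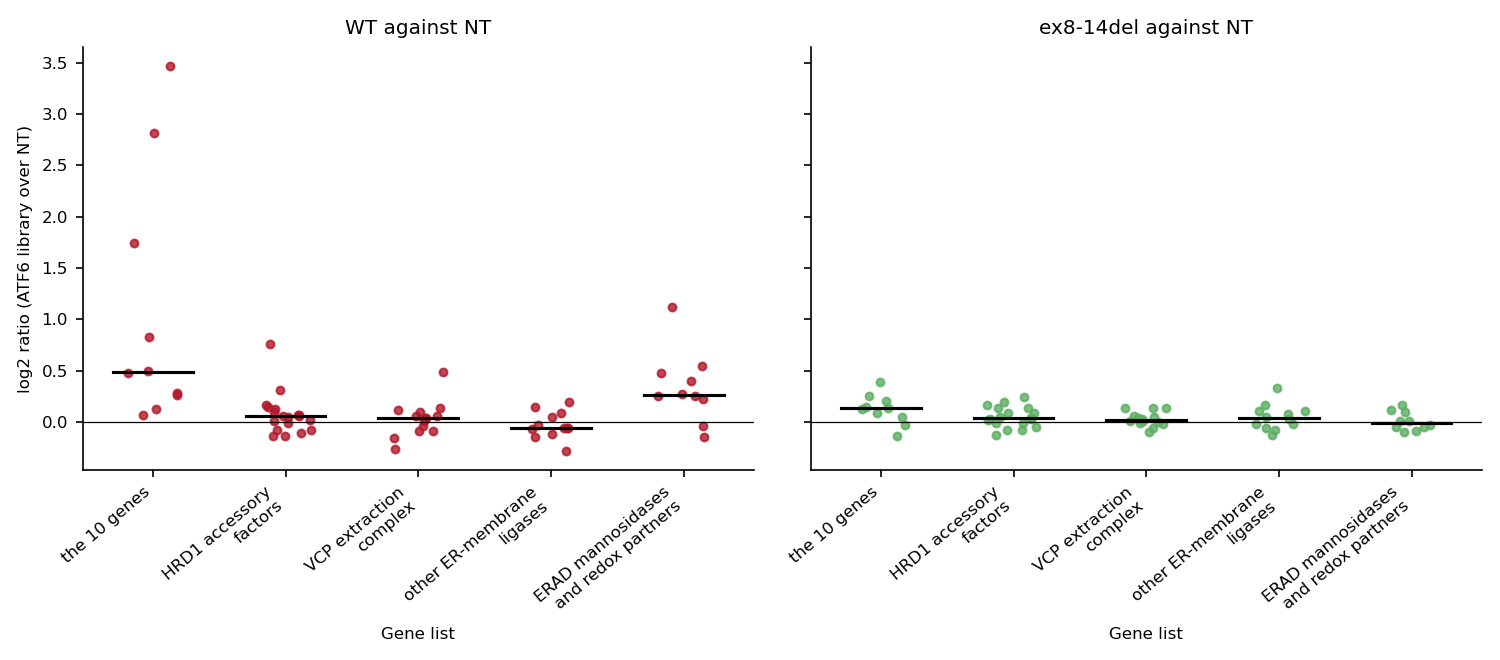
Log2 ratio relative to NT (vertical axis) of each gene in 5 lists (horizontal axis), for WT on the left and ex8-14del on the right. Points are genes, spread sideways only for legibility, and bars are list medians, which in WT are 0.49 for the 10 genes and 0.06, 0.04, −0.06 and 0.27 for the other lists in the order drawn.

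In the authors' deposited table the sheet that matches the WT library gave folds relative to NT of 11.1 for DERL3, 7.08 for HERPUD1, 3.35 for SEL1L, 1.78 for DERL2, 1.42 for OS9 and 1.20 for SYVN1. For M67V the authors' deposited table gave 12.97 for DERL3, 6.38 for HERPUD1, 2.98 for SEL1L, 1.75 for DERL2, 1.57 for OS9 and 1.35 for SYVN1.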

How the data were processed

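Total RNA of HEK293T cells was extracted with an RNeasy kit and made into libraries at BGI after transfection with Lipofectamine, per the labels' protocols. The authors deposited expected counts per gene symbol, as estimated from the reads, for 6 libraries, 1 per group. The build GRCh37.p13 and DESeq come from the submitters' processing notes. The sources used here give no aligner, counter or strand setting. The authors also deposited fold changes (a ratio of scaled counts) and adjusted p-values, which with 1 library per side do not rest on replicates. Another table's 6 columns of per-sample values were not used.

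The placeholder 0.028 was set to 0, expected counts were rounded, 28 of 38072 rows with a calendar date for a name (0.215% to 0.231% of counts) were left out, and 94 rows sharing 43 symbols were summed. Between 3.37% and 3.45% of rows were fractional. CPM were scaled with TMM factors of 0.985 to 1.01 (edgeR 4.0.16, R 4.3.3). A floor of 3 counts corresponds to 0.177 to 0.189 CPM. Log2 ratios used a prior count of 2, and their 95% intervals were Clopper-Pearson intervals of one count given the sum of both. Intervals and floors cover counting error only. Reads amplified by PCR are not independent molecules, so the intervals may be too narrow even for that error. Steps were tested on simulated data and run in Python 3.11.15 (numpy 2.4.6, pandas 2.3.3, scipy 1.17.1, matplotlib 3.10.9). Transcript lengths and gene overlaps came from GENCODE v29 on GRCh38, since the promoter table gives no lengths. Those lengths were chosen after the data had been seen. Alternatives were DESeq2 1.42.0 size factors, library totals, other filters, thresholds and prior counts, single-row symbols, unrounded counts, transcript length, and genes free of overlap.

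The 10 genes and all lists were chosen with earlier results of these data known. All 10 are named, as are up to 4 genes per list with the largest absolute ratio of WT to NT. Genes of a list that met the criterion in an allele relative to NT are named too. Also named are the 3 genes nearest in pattern to HERPUD1, SEL1L and DERL3, and FAU, SMARCB1, MIS12 and TBC1D31, which overlap a member. Expressed genes that overlap ERLEC1, and another that overlaps SYVN1, are not named. A gene that the rule names is not reported here. In the list of other ER-membrane ligases, 1 of 14 symbols was not found and 1 was below 1 CPM.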

Additional observations from a re-analysis of the deposited data

How the results depend on the processing

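All 90 log2 ratios of the 10 genes kept their direction with DESeq2 size factors, library totals, a prior count of 0.5 and unrounded counts, with a largest shift of 0.0326. Their intervals kept their side of 0, or included it, as before, except with library totals, where OS9 in N267star relative to NT was at 0.07 (−0.00031 to 0.14) and DERL1 in N267star relative to WT at −0.09 (−0.19 to 0.02). The number of the 10 genes that met the criterion in M67V relative to NT was 3 at a 2-fold threshold, against 5 at 1.5-fold. Setting aside the 5 genes with an expressed overlapping neighbour, among them DERL3 and DERL2, a choice made after the data had been seen, left 2 in WT and 3 in M67V relative to NT. Relative to WT it left 2 for each of N267star, ex2-3del and ex8-14del, because fewer genes enter. Over all genes, a minimum of 5 CPM gave 194 for WT, 210 for M67V and then 47, 35 and 67 for N267star, ex2-3del and ex8-14del relative to NT, and 39 for M67V and then 167, 167 and 159 for the same 3 alleles relative to WT. The counts at 1.5-fold and 1 CPM were 358, 358, 160, 161 and 190 relative to NT and 149, 329, 327 and 318 relative to WT. A 2-fold threshold gave 170, 159, 61, 63 and 73 relative to NT and 67, 159, 139 and 148 relative to WT, in the same order. With library totals the median log2 ratio of all genes ran between −0.035 and 0.03 over the 9 comparisons. No paired analysis was possible because each group is 1 library, and for the same reason no library could be left out. The intervals cover counting error of single libraries and say nothing of the spread between cultures.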

Other observations

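ZNF804A, a zinc finger gene, was among the 3 genes nearest in pattern to both HERPUD1 and DERL3. It had 26.0 CPM in WT and 23.7 CPM in M67V, while N267star had 3.43, ex2-3del 4.25 and ex8-14del 3.27 CPM, against 4.03 CPM in NT. CORO1A, an actin-binding protein best known from leukocytes, had 26.9 CPM in WT and 33.8 CPM in M67V, and between 4.79 and 5.91 CPM in N267star, ex2-3del and ex8-14del, against 4.82 CPM in NT. GRM8, a glutamate receptor gene, had 6.23 CPM in WT and 5.93 CPM in M67V, against 0.183 CPM in NT, a level at the floor of 3 counts. TLL2 had 16.5 CPM in WT and 20.3 CPM in M67V, against 1.65 CPM in NT. MIS12 had 0.26 (0.15 to 0.37) on the log2 scale in ex8-14del relative to NT, where DERL2, which it overlaps, had 0.13 (−0.02 to 0.28). TBC1D31, which overlaps DERL1 on the opposite strand, had a log2 ratio of 0.34 (0.18 to 0.51) in N267star relative to NT, beside −0.04 (−0.15 to 0.06) for DERL1.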
